A study of Homo sapiens with 12 samples.

Results

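The genes described here are the 10 that encode the subunits of the hypoxia-inducible factors (HIF1A, EPAS1 and ARNT), the oxygen-dependent hydroxylases EGLN1, EGLN2, EGLN3 and HIF1AN, the ubiquitin ligase subunit VHL, and CITED2 and CITED4, which compete with HIF for its coactivators. They were taken by symbol from 19775 genes that had a probe set of their own. For each gene the probe set with the highest mean over the 12 arrays was used, out of 27 probe sets annotated to these 10 genes alone. Of the 10 genes, 9 passed the filter on dim genes, which 14283 genes passed in all; EGLN2 did not. The only EGLN2 probe set without a further gene symbol lay below the array median in all 12 arrays. Probe sets shared between EGLN2 and RAB4B-EGLN2 were not used, so EGLN2 has no usable value here.

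The arrays came from RCC4 and UMRC2, 2 established human kidney cancer lines that lack functional VHL. By the labels, each line was engineered to express stably the ERT2 form of the estrogen receptor ligand-binding part alone (EV), or fused to FoxO1(TA) or FoxO3(TA), in which 3 AKT phosphorylation sites were changed to alanine. All lines were kept under puromycin selection, and the fusion enters the nucleus upon 4-hydroxytamoxifen (4OHT). Each of the 6 engineered lines was sampled after 12 h with 100 nM 4OHT and after 12 h with ethanol vehicle, with 1 array (Human Genome U133 Plus 2.0) for each of the 12 combinations. The labels do not say whether an engineered line is 1 clone or a pool. Nothing in the labels marks a repeat culture, so no combination has a replicate array.

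HIF is a dimer of an alpha subunit (HIF1A or EPAS1, the latter also called HIF-2 alpha) and the beta subunit ARNT. In the presence of oxygen the EGLN enzymes hydroxylate prolines of the alpha subunit, VHL recognises the modified protein and it is degraded. HIF1AN hydroxylates an asparagine, which blocks recruitment of the coactivators CBP and p300. CITED2 and CITED4 occupy the same domain of those coactivators. Loss of VHL, the hallmark of clear cell kidney cancer, leaves the alpha subunits stable in oxygen, so that HIF target genes, EGLN3 and CITED2 among them, are active. Most of this regulation acts on protein, which the arrays did not measure.

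The promoters of CITED2, CITED4 and EGLN3, the members with the largest FoxO values, are shown first, as the 250 bases before the transcription start from RefSeq (GRCh38.p14, minus strand, 5′ to 3′). The capitals mark ACGTG or its reverse complement in CITED2 (chr6:139374649-139374898), GCGTG in CITED4 (chr1:40862364-40862613) and AAACA in EGLN3 (chr14:33951075-33951324). ACGTG and GCGTG are the core letters of hypoxia response elements and AAACA is the core of forkhead sites.
CITED2: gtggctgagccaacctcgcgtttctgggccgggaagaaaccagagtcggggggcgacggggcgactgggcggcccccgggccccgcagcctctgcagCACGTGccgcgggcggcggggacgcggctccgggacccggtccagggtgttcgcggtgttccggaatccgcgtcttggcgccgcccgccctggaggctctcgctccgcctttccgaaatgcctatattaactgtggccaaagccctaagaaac
CITED4: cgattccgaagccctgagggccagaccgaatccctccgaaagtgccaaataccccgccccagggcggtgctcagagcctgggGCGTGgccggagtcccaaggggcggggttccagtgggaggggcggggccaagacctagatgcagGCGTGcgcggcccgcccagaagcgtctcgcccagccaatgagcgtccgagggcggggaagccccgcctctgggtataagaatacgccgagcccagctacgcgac
EGLN3: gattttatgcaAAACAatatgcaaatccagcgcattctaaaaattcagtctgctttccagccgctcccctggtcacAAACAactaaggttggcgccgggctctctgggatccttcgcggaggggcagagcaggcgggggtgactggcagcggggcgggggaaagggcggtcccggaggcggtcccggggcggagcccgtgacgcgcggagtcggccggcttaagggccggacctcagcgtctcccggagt
The longer FoxO element GTAAACA was searched on both strands in 13 promoter entries of 9 of the 10 genes and was found in 0 of them, against 2.98% of 35116 RefSeq promoters over the same 250 bases. The shorter AAACA, which is also contained in GTAAACA, was found in 4 of the 13 entries against 40.4% of all promoters. ACGTG or GCGTG was found in 8 of 13 against 43.2%. In the CITED2 entry shown, the letters CACGTG lie from -153 to -148 relative to the start and read ACGTG on both strands. The other CITED2 entries hold 1 GCGTG each and no ACGTG. These matches describe letters in short windows and do not place a bound factor.

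Intensities are given as log2 values after quantile normalisation, with a floor at 4.17 and an array median of 6.62. A response is the log2 change from vehicle to 4OHT within an engineered line. The deposited arrays fell on 2 spike-in levels, and the labels do not say what set them apart. The geometric mean of 18 spike-in probe sets ran from 4212 to 4699 in 5 RCC4 arrays, and from 2239 to 2463 in the 6 UMRC2 arrays. The remaining array, RCC4 FoxO3 after 4OHT, had 2515 and so lay on the lower level, while its vehicle partner had 4279. The kidney lineage gene PAX8 lay between 11.11 and 12.51 in all 12 arrays and the epithelial keratin KRT8 between 11.64 and 12.74. Of 6 kidney and renal carcinoma markers measured, 4 were at or above the median in all 12 arrays and LHX1 in 0. CD14 (leukocyte) and CDH5 (endothelial) were at the floor in all 12, while PECAM1 (endothelial), COL1A1 and DCN (both fibroblast) were at or above the median in all 12. CD3E (leukocyte) was at or above the median in 9 of 12. The fusion transcript was read without 4OHT from 5 of 9 ESR1 probe sets, those that exceeded EV by at least 2 in each fusion line. It had a median of 9.17 for FoxO1 and 12.42 for FoxO3 in RCC4, and of 12.22 and 13.15 in UMRC2, against 5.24 and 4.59 in the EV lines, a gap that the choice of probe sets favours. Over all 9 ESR1 probe sets, 2 reached the array median in the RCC4 EV vehicle array and 0 in the UMRC2 one, so the arrays do not show the ERT2 transcript that the labels give EV.

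**Figure D1:**
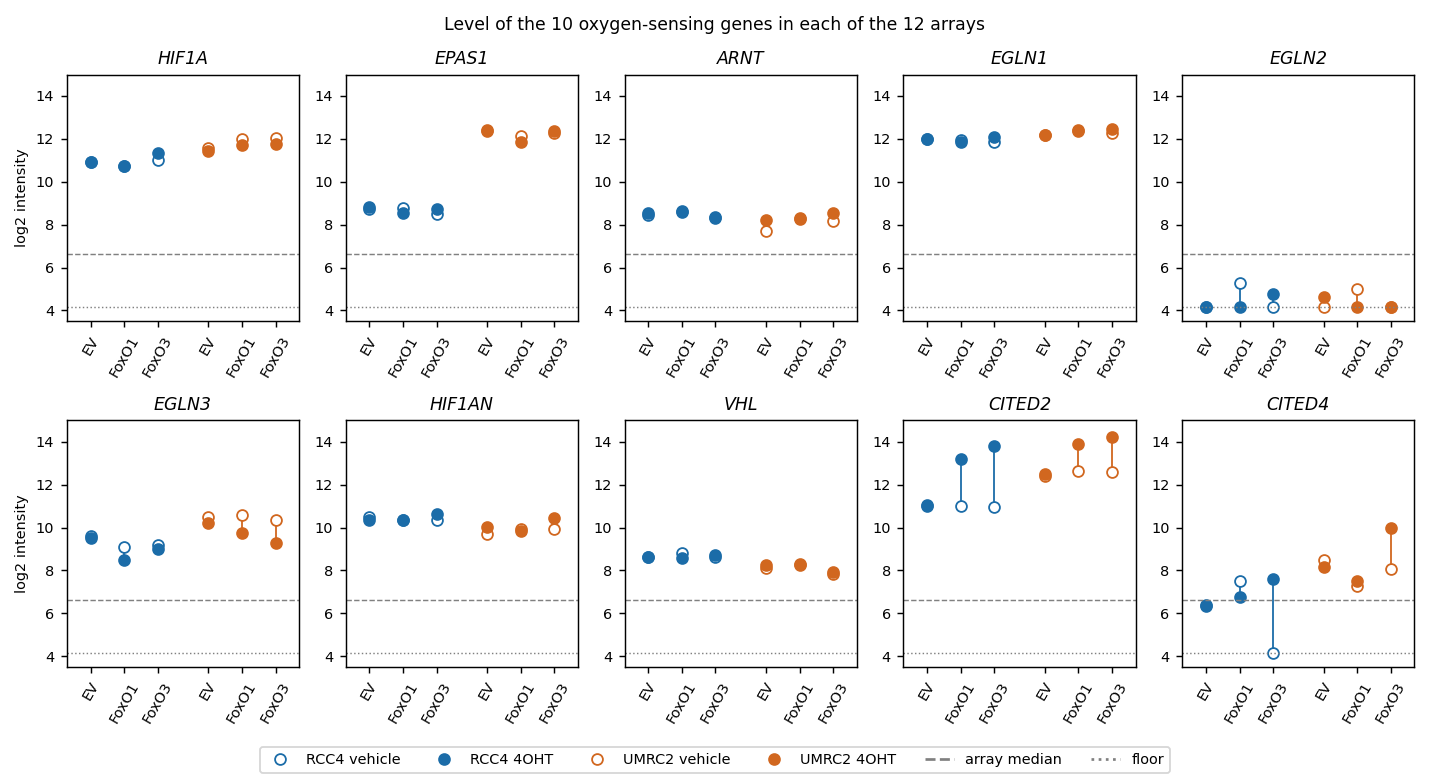
Log2 intensity of the 10 genes in each array, by cell line (blue RCC4, orange UMRC2) and construct; open points are vehicle, filled points are 4OHT, each point is 1 array, the dashed line is the array median and the dotted line the floor. CITED2 separates the fusion lines with 4OHT from all other arrays of the same line, EPAS1 separates the cell lines, and EGLN2 stays below the median.

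CITED2 was the member with a large FoxO response in every fusion line. CITED2 is a transcriptional regulator that binds CBP and p300 in place of HIF, is itself induced by hypoxia, and has been described as a FoxO3 target. In RCC4 its level went from 11.04 to 11.01 in EV, from 10.98 to 13.18 in FoxO1 and from 10.97 to 13.82 in FoxO3, each from vehicle to 4OHT. In UMRC2 it went from 12.40 to 12.49 in EV, from 12.64 to 13.90 in FoxO1 and from 12.60 to 14.20 in FoxO3. The 4 fusion arrays with 4OHT were the highest of the 12, and no EV or vehicle array overlapped with them.

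Relative to the EV response of the same line, the lowest of the 4 fusion responses of CITED2 was 1.16, in UMRC2 FoxO1, and the highest was 2.88, in RCC4 FoxO3. The mean over both isoforms exceeded EV by 1.94 ± 0.25 (SE from limma, n = 2 cell lines per construct; adjusted p = 0.00765), a 3.85-fold change, so CITED2 rose. It was 1 of 9 tested members called in this comparison, where 7.81% of all genes were called. Under FoxO3 alone CITED2 rose by 2.19 ± 0.29 (adjusted p = 0.00356 by limma). Under FoxO1 alone the value was 1.70 ± 0.29 and did not pass (adjusted p = 0.111 by limma). FoxO3 exceeded FoxO1 by 0.50 (95% interval -0.18 to 1.17, adjusted p = 0.388), so the isoforms were not separated for CITED2; without the RCC4 FoxO3 pair that difference was 0.08. The FoxO1 and FoxO3 comparisons share their EV arrays.

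The calls on responses, here and for all genes below, depend on the prior variance, since each fit has 2 residual degrees of freedom. A fit whose prior variance followed the mean response was run first and called 0 genes in every comparison of responses; the prior that follows the mean level was adopted after that was seen. Under the first form the adjusted p by limma for CITED2 was 0.221 for both isoforms and 0.114 for FoxO3. It was 0.166 and 0.0857 with a constant prior variance, and 0.181 and 0.121 without the filter on dim genes. Both settings called 0 of all genes in these comparisons. Without the RCC4 FoxO3 pair the FoxO1 value passed (1.70, adjusted p = 0.00874), as it did without the UMRC2 EV pair (2.30, adjusted p = 0.00611) or the UMRC2 FoxO3 pair (1.70, adjusted p = 0.00772). Without the RCC4 EV pair it was 1.09 and did not pass. The FoxO3 value kept its call without the RCC4 FoxO3 pair (1.77, adjusted p = 0.00498).

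A separate bright CITED2 probe set gave larger values. It exceeded EV by 2.88 for both isoforms, 2.50 for FoxO1 and 3.27 for FoxO3, against 1.94, 1.70 and 2.19 from the probe set used. Its RCC4 response was 2.94 with FoxO1 and 4.03 with FoxO3, while its EV responses were -0.002 in RCC4 and -0.07 in UMRC2. The remaining CITED2 probe set was at the floor in 11 of 12 arrays. Both bright probe sets thus placed all 4 fusion responses above EV.

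**Figure D2:**
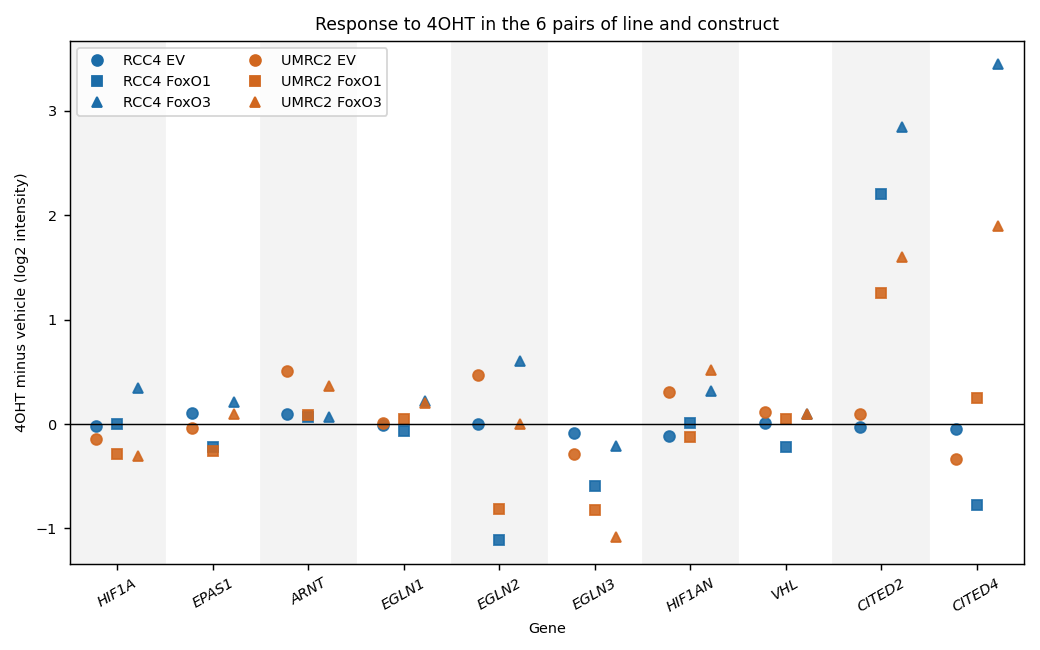
4OHT minus vehicle in log2 intensity for each gene; circles are EV, squares FoxO1 and triangles FoxO3, blue is RCC4 and orange UMRC2, and each point is 1 pair of arrays. CITED2 is between 1.26 and 2.85 in the 4 fusion lines, and CITED4 is 3.44 in RCC4 FoxO3 and 1.90 in UMRC2 FoxO3.

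CITED4, the smaller relative of CITED2 with the same coactivator partners, was high after 4OHT in the FoxO3 lines. In RCC4 its level was 6.40 and 6.36 in EV, 7.53 and 6.75 in FoxO1, and 4.17 and 7.62 in FoxO3, for vehicle and 4OHT in that order. In UMRC2 the values were 8.51 and 8.17 in EV, 7.26 and 7.52 in FoxO1, and 8.06 and 9.96 in FoxO3. In UMRC2 the FoxO3 array with 4OHT stood clear of the other 5 arrays of its line, while in RCC4 it lay just above the FoxO1 vehicle array.

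The CITED4 response in RCC4 FoxO3, 3.44, counts from a vehicle array at the floor, whose deposited intensity was 13.5, against 114.7 to 246.4 in the 4 RCC4 EV and FoxO1 arrays. Fitted values that include this pair therefore depend on where the floor is set and are no exact differences. With the floor used, the fitted value under FoxO3 was 2.86 against EV (adjusted p = 0.0186 by limma) and 2.94 against FoxO1 (adjusted p = 0.0368 by limma). With the floor at the 10th percentile these were 3.21 and 3.28. Under FoxO1 the value was -0.07 ± 0.61 (adjusted p = 0.986). For both isoforms together it was 1.40 ± 0.53 and did not pass (adjusted p = 0.162). Without the UMRC2 FoxO3 pair, that value was 1.87 and passed (adjusted p = 0.0462).

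CITED2 and CITED4 were the 2 members past the threshold under FoxO3, where 16.6% of all genes were called. CITED4 was the 1 member past it for FoxO3 against FoxO1, where 5.81% were. Without the RCC4 FoxO3 pair CITED4 no longer passed, at 1.91 against EV (adjusted p = 0.0642) and 1.98 against FoxO1 (adjusted p = 0.101). It also missed the threshold against EV without the RCC4 EV pair (adjusted p = 0.051) or the UMRC2 EV pair (adjusted p = 0.0744), and against FoxO1 without the RCC4 FoxO1 pair (1.96, adjusted p = 0.259). Under the prior that follows the mean response its adjusted p was 0.114 against EV and 0.238 against FoxO1. CITED4 has 1 probe set, so no other probe set checks it. The FoxO3 lines also carried more fusion transcript than the FoxO1 lines, and the part of that in the difference between isoforms was not tested.

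The genes whose 12 levels were most like those of CITED2, by Pearson's r among 10095 tested genes with a range of at least 1, were SERINC5 (r = 0.990), MTUS1 (r = 0.987) and DEPP1 (r = 0.987). DEPP1 is a FoxO-regulated gene. For CITED4 they were PELI1 (r = 0.909), PBXIP1 (r = 0.907) and TMEM44 (r = 0.903). These r describe the same 12 arrays, which share lines, constructs and spike-in levels.

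Among the prolyl hydroxylases, EGLN3 was the one with the same sign in all 4 fusion lines, on the probe set used. EGLN3 is strongly induced by HIF and hydroxylates the alpha subunits in turn. In RCC4 its level went from 9.61 to 9.52 in EV, from 9.09 to 8.50 in FoxO1 and from 9.19 to 8.99 in FoxO3. In UMRC2 it went from 10.49 to 10.21 in EV, from 10.58 to 9.75 in FoxO1 and from 10.37 to 9.29 in FoxO3. All 6 responses, EV included, were below 0. The fusion responses lay below that of EV in all 4 lines, by -0.80 to -0.12.

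The EGLN3 difference from EV was -0.49 ± 0.22 for both isoforms (adjusted p = 0.237), -0.52 ± 0.25 for FoxO1 (adjusted p = 0.551) and -0.46 ± 0.25 for FoxO3 (adjusted p = 0.28), and none passed by limma. The FoxO3 value was -0.79 without the RCC4 FoxO3 pair and -0.13 without the UMRC2 FoxO3 pair, and neither passed. Its other bright probe set gave -0.11 for FoxO1 and -1.51 for FoxO3, and the latter passed (adjusted p = 0.0396) in the fit of each gene's next brightest probe set. In that probe set the responses were -1.13 in RCC4 FoxO3 and -2.03 in UMRC2 FoxO3, but 0.05 and -0.40 in the FoxO1 lines and -0.38 and 0.25 in EV. The EGLN3 probe sets thus differed in size and in the call under FoxO3, and in RCC4 FoxO1 in their sign against EV. The cause was not tested.

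EGLN1, the main oxygen sensor among the prolyl hydroxylases, was nearly level across the series, between 11.85 and 12.46 in the 12 arrays. Its 6 responses ran from -0.07 to 0.22. The difference from EV was 0.10 for both isoforms (95% interval -0.17 to 0.37), -0.01 for FoxO1 and 0.21 for FoxO3 (-0.10 to 0.52). EGLN1 has 3 other bright probe sets, and each had the same sign as the one used for both isoforms together. The interval leaves out a change of 2-fold or more in either direction. EGLN2, the remaining prolyl hydroxylase, was at the floor in 8 of 12 arrays on its own probe set and was not tested.

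HIF1AN, the asparaginyl hydroxylase also called factor inhibiting HIF, had FoxO3 responses of 0.32 in RCC4 and 0.52 in UMRC2. Its FoxO1 responses were 0.01 and -0.12, and its EV responses were -0.11 and 0.31. The FoxO3 value against FoxO1 was 0.48 ± 0.22 (95% interval -0.03 to 0.98, adjusted p = 0.259 by limma), and none of the HIF1AN response comparisons passed. These values are from the probe set used. The other bright HIF1AN probe sets gave FoxO1 responses of -0.29 and -0.33 in RCC4 and of 0.16 and 0.58 in UMRC2. Their FoxO3 responses were 0.33 and 0.40 in RCC4 and 0.78 and 0.62 in UMRC2. Their EV responses were 0.27 and 0.0004 in RCC4 and -0.30 and 0.11 in UMRC2. VHL responses lay between -0.22 and 0.11 in the 6 pairs, and its FoxO value against EV was -0.05 (95% interval -0.62 to 0.51). A VHL transcript level says nothing of the protein's function, which these lines lack.

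**Figure D3:**
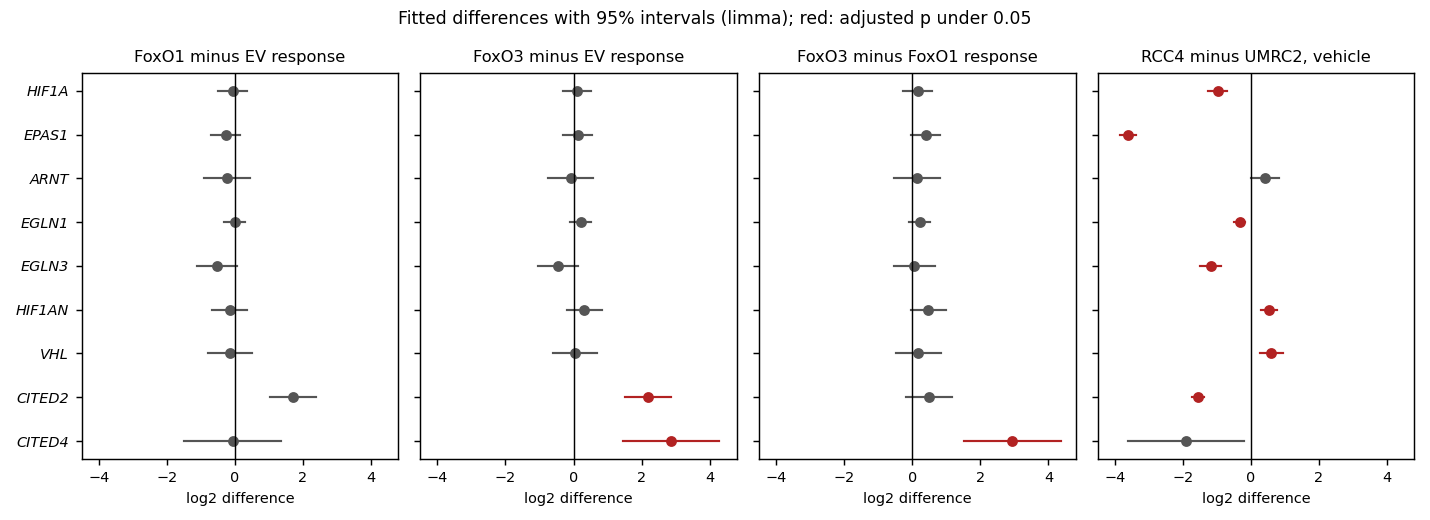
Fitted log2 differences (points) with 95% intervals (lines) from limma for the 9 genes tested, in 4 comparisons; red marks adjusted p under 0.05. CITED2 at 2.19 lies above 0 under FoxO3, as does CITED4 at 2.86, which depends on the floor, and EPAS1 at -3.61 lies lowest between the cell lines.

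No HIF subunit passed the test in a comparison of responses. HIF1A, the alpha subunit present in nearly all cells, went from 10.94 to 10.92 in RCC4 EV, from 10.74 to 10.74 in RCC4 FoxO1 and from 11.02 to 11.36 in RCC4 FoxO3. In UMRC2 it went from 11.57 to 11.43 in EV, from 12.02 to 11.73 in FoxO1 and from 12.04 to 11.74 in FoxO3. The 4 fusion responses fell on both sides of EV, 2 above and 2 below. The FoxO value against EV was 0.02 (95% interval -0.35 to 0.39, adjusted p = 0.962). Under FoxO3 alone it was 0.10, and -0.12 without the RCC4 FoxO3 pair.

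EPAS1, the alpha subunit linked most closely to kidney cancer growth, went from 8.72 to 8.82 in RCC4 EV, from 8.77 to 8.55 in FoxO1 and from 8.52 to 8.72 in FoxO3. In UMRC2 it went from 12.42 to 12.38 in EV, from 12.12 to 11.86 in FoxO1 and from 12.29 to 12.39 in FoxO3. On the probe set used, both FoxO1 lines had responses under 0, at -0.22 and -0.26, and both FoxO3 lines above 0, at 0.21 and 0.10. The other bright probe set gave -0.36 and -0.69 in the FoxO1 lines, but 0.51 and -0.38 in the FoxO3 lines, for RCC4 and UMRC2. FoxO3 against FoxO1 gave 0.39 ± 0.18 (95% interval -0.04 to 0.82) and did not pass (adjusted p = 0.272 by limma). That value was 0.59 on the other bright probe set and -0.28 with the mean of the probe sets, a dim one included, and neither passed.

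ARNT, the shared beta subunit, had responses from 0.06 to 0.51, the highest in UMRC2 EV. Its FoxO value against EV was -0.16 ± 0.25 (adjusted p = 0.776). Of its 4 other bright probe sets, 2 had the same sign, and their values ran from -1.01 to 0.39. Under FoxO1 alone 0 of 9 members were called by limma, where 0.0840% of all genes were called. At an unadjusted p under 0.05 there was 1 member (CITED2), as were 1430 of all 14283 genes. On the probe sets used, the 95% intervals for FoxO against EV allow changes in HIF1A, EPAS1 and ARNT of up to 0.39, 0.29 and 0.43 upward. Downward they allow up to 0.35, 0.45 and 0.74, and the ARNT probe set at -1.01 lay outside this. Without the RCC4 FoxO3 pair the values under FoxO3 alone went from 0.12 to 0.11 for EPAS1, from -0.09 to -0.05 for ARNT, from 0.21 to 0.17 for EGLN1, from 0.32 to 0.35 for HIF1AN and from 0.04 to -0.06 for VHL, and none passed. In RNA from a whole plate, a change in level per cell and a change in the share of cells that respond cannot be told apart.

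**Figure D4:**
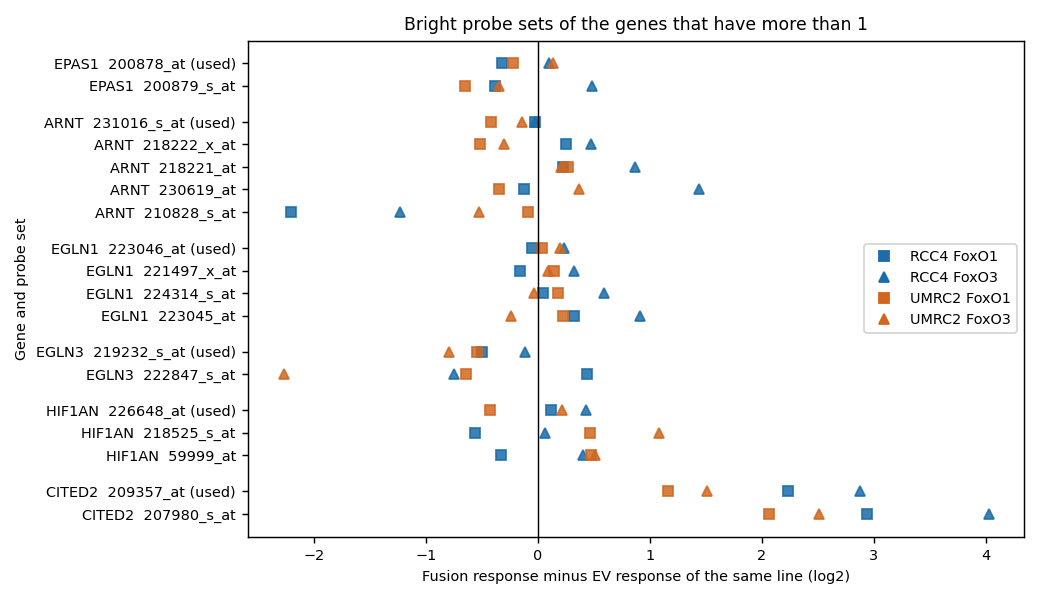
Fusion response minus the EV response of the same line, in log2, for each bright probe set (at or above the array median in at least 2 arrays) of the genes that have more than 1; squares are FoxO1, triangles FoxO3, blue RCC4 and orange UMRC2. Both CITED2 probe sets lie above 0 in all 4 lines. The EGLN3 probe sets part in the FoxO3 lines and lie on opposite sides of 0 in RCC4 FoxO1.

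The controls for 4OHT itself and for the resting fusions came next. In EV cells, 4OHT gave values from -0.19 to 0.30 over the 9 members tested, with CITED2 at 0.03 ± 0.21. By limma 0 members and 0% of all genes were called. An unadjusted p under 0.05 was found for 0 members and for 339 of all 14283 genes. Without 4OHT, the fusion lines differed from EV by 0.08 ± 0.08 for CITED2, -0.24 ± 0.13 for EGLN3 and -0.70 ± 0.75 for CITED4. Again 0 members and 0% of genes were called, and 0 members had an unadjusted p under 0.05, against 1026 of all 14283 genes. The CITED4 value includes the RCC4 FoxO3 vehicle array at the floor, and was 0.12 without the UMRC2 FoxO1 array and -1.51 without the RCC4 FoxO1 array.

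Whether RCC4 and UMRC2 differ in their FoxO response was tested with the FoxO1 and FoxO3 pairs of a line as its replicates. For CITED2 the response in RCC4 exceeded that in UMRC2 by 1.22 ± 0.50 (95% interval -0.04 to 2.47), which did not pass (adjusted p = 1 by limma). CITED2 started lower in RCC4, and with 4OHT the fusion arrays reached 13.18 and 13.82 in RCC4 against 13.90 and 14.20 in UMRC2. By limma 0 members and 0% of genes were called. An unadjusted p under 0.05 was found for 0 members and for 338 of all 14283 genes.

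Without 4OHT, RCC4 and UMRC2 differed in most of these genes. EPAS1 was 12.2-fold lower in RCC4 than in UMRC2 without 4OHT, with means of 8.67 ± 0.13 and 12.27 ± 0.15 (SD, n = 3 engineered lines each) and a difference of -3.61 ± 0.10 (SE, adjusted p = 2.43e-06 by limma). Over all 12 arrays its range was 8.52 to 8.82 in RCC4 and 11.86 to 12.42 in UMRC2, so the lines did not overlap. Its other bright probe set gave -2.55 with the same sign. At the same lower spike-in level, the FoxO3 arrays with 4OHT differed by -3.66.

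CITED2 was 2.93-fold lower in RCC4 (-1.55 ± 0.07, adjusted p = 1.43e-05), with vehicle levels of 10.97 to 11.04 against 12.40 to 12.64. HIF1A was 1.97-fold lower (-0.98 ± 0.12, adjusted p = 0.000695), with 10.90 ± 0.14 against 11.88 ± 0.27. EGLN3 was 2.27-fold lower on the probe set used (-1.18 ± 0.13, adjusted p = 0.000373). The other EGLN3 probe set gave -0.11 and did not pass (adjusted p = 0.59), so the EGLN3 difference rests on 1 probe set. With the values as deposited HIF1A was -0.18 and did not pass.

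HIF1AN and VHL were higher in RCC4. HIF1AN differed by 0.52 ± 0.10 (adjusted p = 0.00474), with 10.38 ± 0.07 against 9.87 ± 0.12, and its other bright probe sets gave 0.97 and 1.27. VHL differed by 0.60 ± 0.14 (adjusted p = 0.0102), with 8.69 ± 0.11 against 8.08 ± 0.22. VHL lost its call without the FoxO3 vehicle array of either line, at 0.52 (adjusted p = 0.0716 without the RCC4 array and 0.061 without the UMRC2 array). With the mean of the VHL probe sets it was 0.09 (adjusted p = 0.737). EGLN1 differed by -0.33 ± 0.07 (adjusted p = 0.00684) after quantile normalisation, and its 3 other bright probe sets gave -0.05, -0.13 and -0.13. With the values as deposited, which keep the difference in spike-in level, it was 0.51.

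In this comparison 7 of 9 members were called, 5 lower and 2 higher in RCC4, where 50.3% of all genes were called. ARNT (0.42, adjusted p = 0.0804) and CITED4 (-1.91, adjusted p = 0.0639) did not pass. CITED4 passed without the FoxO1 vehicle array of either line, at -3.00, and was -0.92 without the FoxO3 one. With the values as deposited ARNT passed at 1.06. All RCC4 vehicle arrays lie on the higher spike-in level and all UMRC2 vehicle arrays on the lower. Line and spike-in level therefore cannot be told apart in this comparison. The FoxO3 arrays with 4OHT share a spike-in level, with 1 array per line. Their differences were -0.38 for HIF1A, -0.39 for CITED2, -0.30 for EGLN3, -0.39 for EGLN1, -2.35 for CITED4, 0.21 for HIF1AN and 0.78 for VHL, each with the sign found in vehicle. ARNT had -0.15 there, opposite to its sign in vehicle. In the FoxO3 vehicle arrays several were farther from 0: -1.03 for HIF1A, -1.63 for CITED2, -1.18 for EGLN3, -3.89 for CITED4 and 0.41 for HIF1AN. EGLN1 (-0.41) and VHL (0.77) were much the same in vehicle. The FoxO3 arrays with vehicle and with 4OHT differ in treatment as well as in the RCC4 spike-in level, and these cannot be told apart here. From vehicle to 4OHT, CITED2 rose by 2.85 in RCC4 FoxO3 and by 1.60 in UMRC2 FoxO3. CITED4 had 3.44, from a vehicle array at the floor, and 1.90.

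The wider HIF pathway was read from lists of partner and target genes written from general knowledge with earlier results of these data known. Of 17 tested partners, such as coactivators, cullin complex subunits and chaperones, 0 were higher and 2 lower for FoxO against EV, where 3.09% of all genes were higher and 4.73% lower. These were SIAH2, a ubiquitin ligase that targets the prolyl hydroxylases (-1.15 ± 0.25, adjusted p = 0.0349 by limma), and HSP90AB1, a chaperone that holds HIF alpha subunits (-0.81 ± 0.09, adjusted p = 0.00617 by limma). The HSP90AB1 responses were -0.32 and -0.12 in the FoxO1 lines, -1.17 and -1.21 in the FoxO3 lines, and 0.14 and 0.08 in EV, for RCC4 and UMRC2. The median of the partners was 0.17 against -0.05 over all genes tested.

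Of 63 tested HIF targets, 5 were higher and 11 lower for FoxO against EV, where 3.09% of all genes were higher and 4.73% lower. The median of the targets was -0.14 against -0.05 over all genes. Under FoxO3 alone 8 were higher and 18 lower, with a median of -0.32 against -0.07, where 6.60% of all genes were higher and 10.0% lower. Under FoxO1 alone 0 were called, where 0.0840% of all genes were, and the median was 0.02 against -0.02. For FoxO3 against FoxO1, 2 were higher and 10 lower, where 2.16% and 3.65% of all genes were. With the values as deposited the FoxO3 counts were 0 and 10, where 583 of all genes were called against 2372 after normalisation. Each count was 0 if dim genes were kept, if the prior variance was constant or if it followed the mean response. Under those settings 0 of all genes were called for FoxO3 against EV. Leaving out 1 pair at a time gave 0 to 8 targets higher and 6 to 19 lower for FoxO against EV. For FoxO3 against FoxO1 it gave 0 to 4 higher and 2 to 15 lower. Those fits called 278 to 1668 of all genes for FoxO against EV and 29 to 1143 for FoxO3 against FoxO1. The fewest lower for FoxO3 against FoxO1 came without the RCC4 FoxO1 pair, where 29 genes were called in all against 830 with every pair.

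Among targets in glycolysis and mitochondria, 2 of 24 were higher and 4 lower for FoxO against EV, where 3.09% of all genes were higher and 4.73% lower. Without the RCC4 FoxO3 pair these were 2 and 7, in a fit that called 1397 of all genes against 1116 with every pair. HK2, a hexokinase, was lower by the largest amount (-1.81, adjusted p = 0.0063 by limma), and PFKFB4, which makes an activator of glycolysis, was at -1.23 (adjusted p = 0.0185). PFKFB3, its relative, was at -0.66. PDK1, a kinase that holds back pyruvate oxidation, rose by 0.81 ± 0.19 (adjusted p = 0.0473 by limma). In RCC4 FoxO1 the PDK1 response was 0.06 against 0.05 in EV, and that of PFKFB4 was -0.12 against -0.19. In UMRC2 FoxO1 they were 0.76 against -0.15 for PDK1 and -0.45 against 0.15 for PFKFB4. The FoxO3 responses were 0.83 and 1.36 for PDK1 and -2.40 and -2.03 for PFKFB4, for RCC4 and UMRC2. HK2 responses were -0.53 and -0.98 in the FoxO1 lines and -2.15 and -1.95 in the FoxO3 lines, against 0.22 and 0.60 in EV, for RCC4 and UMRC2.

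Among secreted, matrix and growth targets, 2 of 18 were higher and 3 lower, against the same 3.09% and 4.73%. With the RCC4 FoxO3 pair left out, these were 4 and 3, again where 1397 of all genes were called against 1116 with every pair. CCND1, cyclin D1 and an EPAS1 target in kidney cancer, was at -2.28 (adjusted p = 0.00439 by limma), and VEGFA, the angiogenic factor, at -1.70 (adjusted p = 0.00625). VEGFA responses were -3.01 and -2.78 in the FoxO3 lines but -0.28 and -0.92 in the FoxO1 lines, for RCC4 and UMRC2. TGFA, a growth factor and another EPAS1 target, was at -0.74 (adjusted p = 0.0442). EDN1, the vasoconstrictor endothelin, rose by 1.71 ± 0.35 (adjusted p = 0.0296).

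Among the other targets, 1 of 21 was higher and 4 lower, against 3.09% and 4.73%. These were 1 and 7 without the RCC4 FoxO3 pair, where 1397 of all genes were called against 1116 with every pair. DDIT4, an inhibitor of mTORC1, was at -1.69, PPP1R3C, a glycogen-targeting phosphatase subunit, at -1.76, and HILPDA, a lipid droplet protein, at -0.95. INSIG2, which restrains sterol synthesis, rose by 1.06 (adjusted p = 0.0185 by limma). All 14 partner and target genes named here were chosen for their size among those called. When the RCC4 FoxO3 pair was left out, 14 of 14 kept their sign, with HK2 at -1.76, VEGFA at -1.56 and HSP90AB1 at -0.84. They also kept their call, in that fit with more genes called in all.

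**Figure D5:**
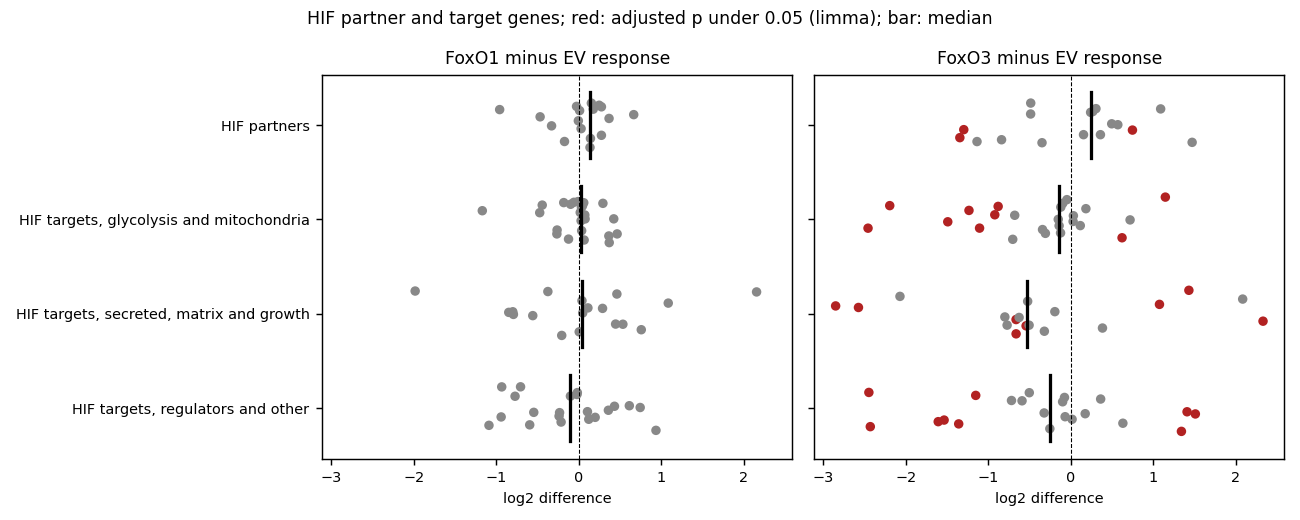
Fitted log2 differences from the EV response for FoxO1 and FoxO3, each point 1 HIF partner or target gene of the 4 lists; red marks adjusted p under 0.05 by limma and the black bar is the list median. Under FoxO1 0 targets are called, and under FoxO3 8 are higher and 18 lower, where 6.60% of all genes are higher and 10.0% lower.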

How the data were processed

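Total RNA from 12 cultures was hybridised to 12 arrays, and the authors deposited 1 intensity per probe set, made with MAS5 per the submitters' processing notes; the version, scaling target and repeat cultures are not given in the sources used here. From these values, quantile normalisation on the log2 scale was applied over 54675 probe sets, values under the 20th percentile (18.0) were raised to it, and 41091 probe sets with 1 gene symbol gave 19775 genes. The filter kept genes that reached the array median in 2 or more arrays. The 6 responses were fitted by construct and cell line in limma 3.58.1 (R 4.3.3), which leaves 2 residual degrees of freedom and gave 5.46 prior ones. The plan named a trended prior variance. A first fit, with the trend on the mean response and quantile normalisation of linear values, called 0 genes in the comparisons of responses. After that was seen, the trend was set on the mean log2 level and the normalisation moved to log2 values; the move to log2 alone changed the FoxO against EV count from 1113 to 1116 genes, so the calls turn on the trend. Tests are two-sided, Benjamini-Hochberg adjusted over 14283 genes, with a threshold of 0.05, and the error after ± is a standard error for a difference and an SD over 3 engineered lines for a level. With 1 array per combination, no p-value rests on repeat cultures: those of construct effects rest on the spread between the 2 cell lines, and those between cell lines on the spread between constructs; the number of arrays limits the precision. All 10 members are named; list genes are named where called for FoxO against EV, up to 4 a list. The members and lists were chosen with earlier results of these data known, as was the switch from deposited to normalised values. The fits were tested on simulated data.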

Additional observations from a re-analysis of the deposited data

Results flagged for a closer look

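The fitted CITED4 response differed between the isoforms by the test of that difference, at 2.94 on the log2 scale for FoxO3 minus FoxO1 (adjusted p = 0.0368 by limma, n = 2 cell lines per construct). It is no exact difference, because the RCC4 FoxO3 response of 3.44 counts from a vehicle array at the floor. Without that pair the value was 1.98 and did not pass (adjusted p = 0.101). In UMRC2, where no CITED4 array was at the floor, the responses were 1.90 for FoxO3 and 0.25 for FoxO1.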

How the results depend on the processing

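The 17 alternatives changed the scaling, floor, filter, probe set, prior variance, model terms or samples; those with a prior that follows the mean response or with linear quantile normalisation were added after seeing the data. In the 72 member values, 1031 of 1173 alternative values kept their side of the threshold and, where uncalled, moved by at most a standard error; 100 uncalled ones moved by more, 32 lost a call and 9 gained one. The sign changed in 100, of which 99 passed the threshold in neither fit; the other was EGLN1 between the cell lines, 0.51 with the values as deposited. Of the members, 0 were called for FoxO against EV, for FoxO3 against EV and for FoxO3 against FoxO1 if dim genes were kept or if the prior variance was constant. The same held if it followed the mean response (on log2 or linear normalisation, the latter being the fit run first). These settings called 0 of all genes in those comparisons too. For FoxO3 against FoxO1 the member count was also 0 with the mean of the probe sets, and with the next brightest probe set, a table that lacks CITED4 and so says nothing of its call. Those fits called 365 and 147 of all genes, against 830 in the main fit. Between the cell lines the member count was 3 with the next brightest probe set, a table that lacks genes with 1 probe set. There 3359 of all genes were called, against 7183 in the main fit. Leaving out each pair in turn gave 1 to 2 members for FoxO against EV, 0 to 1 for FoxO1, 1 to 2 for FoxO3, 0 to 1 for FoxO3 against FoxO1 and 6 to 8 between the lines. Over all genes those fits called 278 to 1668, 0 to 203, 1271 to 2258, 29 to 1143 and 5759 to 6624, in the same order. The difference between lines in the FoxO response could not be fitted without an EV pair or without the line term. The labels carry no replicate numbers to use as a block. The fits of responses are paired, as they set each 4OHT array against the vehicle array of its own engineered line. Those of vehicle arrays have no such pairs.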
